A study of Mus musculus with 48 samples.

Results

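The genes examined here are the 37 genes encoded by mouse mitochondrial DNA, and they were chosen as every gene on chrM in the GENCODE vM21 annotation. They are 37 of the 55450 genes in the table, namely 13 mRNA genes, 2 rRNA genes and 22 tRNA genes. RNA came from 48 subcutaneous B16-D5 melanomas (a line of mouse melanoma cells), each taken from 1 mouse, with 3 tumors in each of 16 conditions. The first experiment held 30 tumors of WT C57BL/6J mice. These were untreated at 0 h, or untreated, given control IgG or given anti-PD-1 at 6 h, day 1 and day 3. The second held 18 tumors at day 7 from C57BL/6J WT mice or iNOS KO mice, which lack inducible nitric oxide synthase, again untreated, given IgG or given anti-PD-1. Mice arrived when 4 weeks old and were kept for 2 weeks before use, and tumor cells were placed in the flank 8 days before day 0. Antibodies were given at 250 µg on days 0 and 3. Treated tumors of 6 h and day 1 thus came after the first dose only. The study's methods do not say whether day 3 tumors were taken before the second dose. The conditions were read from the sample titles, in which D0 stands for 6 h. The time of the second experiment is day 7 by a figure legend of the study, which counts it from antibody treatment. The iNOS KO is a property of the host mouse only, since the injected melanoma cells were not deleted for the gene.

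Mitochondrial DNA is a small circular genome kept in many copies per cell. It is transcribed from both strands by the polymerase Polrmt with the factor Tfam, as long precursors that are cut apart mostly at the tRNAs that lie between the other genes. Its mRNAs encode core subunits of respiratory complexes I, III and IV and of ATP synthase, and its rRNAs and tRNAs serve the ribosome inside the organelle. Its transcripts are abundant in tissues with a high demand for respiration, such as muscle.

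Several of these genes have near-identical neighbors elsewhere in the annotation, which bears on what a count of them means. On GRCm38 chromosome 1, 7 annotated genes on the minus strand follow the order of chrM bases 6381 to 11042. This span of 4662 bases wholly holds 11 of the 37 genes, which are 6 mRNA genes and 5 tRNA genes. The start of the copy lies inside mt-Co1, the gene for a catalytic subunit of cytochrome c oxidase (complex IV), and its counterpart is Gm29216. Both stretches are shown because they hold all the differences between the pair, and capitals mark the bases that differ.
mt-Co1, chrM:6381-6440, plus strand: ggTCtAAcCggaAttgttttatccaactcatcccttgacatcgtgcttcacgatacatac
Gm29216, chr1:24616138-24616197, minus strand: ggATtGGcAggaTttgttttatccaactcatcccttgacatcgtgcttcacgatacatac
Counted from base 1 of mt-Co1, the substitutions from mt-Co1 to Gm29216 were T1056A, C1057T, A1059G, A1060G, C1062A and A1066T, which are 6 of 492 compared bases. The other pairs differed less. The first bases of mt-Co2 and of Gm28661 are shown as an identical pair, with the start codon in capitals.
mt-Co2, chrM:7013-7072, plus strand: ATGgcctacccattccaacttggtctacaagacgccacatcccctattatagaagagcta
Gm28661, chr1:24615506-24615565, minus strand: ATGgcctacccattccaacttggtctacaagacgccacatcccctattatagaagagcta
Over the whole compared length, identity was 100% for Gm28661 with mt-Co2, Gm10925 with mt-Atp6, Gm28437 with mt-Co3, Gm10222 with mt-Nd4l and Gm28439 with the part of mt-Nd4 that it covers. Gm28438 differed from mt-Nd3 by 1 substitution, T3C, counted from base 1 of mt-Nd3. Members also overlap each other. The last bases of mt-Atp8 are the first of mt-Atp6, shown here with the start codon of mt-Atp6 in capitals.
mt-Atp8 and mt-Atp6 overlap, chrM:7927-7969, plus strand: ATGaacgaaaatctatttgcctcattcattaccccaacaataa
The tRNA genes are 59 to 75 bases long, shorter than a usual library fragment. Shown next are the genes for the tRNAs with the 3 highest summed counts, mt-Tm, mt-Ti and mt-Tp (methionine, isoleucine and proline). With them are the one with the lowest, mt-Tk (lysine), and mt-Tt (threonine), the neighbor of mt-Tp on the opposite strand. All are named in the tRNA results below. They are printed in the sense of each gene and have no capitals.
mt-Tm, chrM:3845-3913, plus strand: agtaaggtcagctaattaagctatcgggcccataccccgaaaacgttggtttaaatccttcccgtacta
mt-Ti, chrM:3706-3774, plus strand: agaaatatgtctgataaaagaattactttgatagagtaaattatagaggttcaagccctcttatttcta
mt-Tp, chrM:15356-15422, minus strand: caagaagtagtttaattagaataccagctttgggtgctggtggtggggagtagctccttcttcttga
mt-Tt, chrM:15289-15355, plus strand: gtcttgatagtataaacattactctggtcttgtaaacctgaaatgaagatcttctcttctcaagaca
mt-Tk, chrM:7700-7764, plus strand: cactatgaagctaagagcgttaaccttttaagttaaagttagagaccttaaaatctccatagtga

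Depth over all genes was 25574203 to 47687872 counts per library at 0 h to day 3 (median 37544682) and 11625862 to 40959309 counts on day 7 (median 34916322). All 8 melanoma markers had over 3 counts in every library, and their summed level was 9073 to 18883 CPM (the count as a part of the library's total, scaled alike in all libraries). Summed leukocyte markers ranged from 74.5 to 1234 CPM, skeletal muscle markers from 4.83 to 9311 CPM, keratinocyte markers from 2.32 to 4959 CPM and adipocyte markers from 0.868 to 336 CPM, whereas erythrocyte markers stayed at or under 5.03 CPM. Nos2, the gene that encodes iNOS, was at 1.16 to 5.69 CPM in the libraries labelled iNOS KO (37 to 233 counts, n = 9) and at 1.40 to 9.55 CPM in the day 7 WT libraries (48 to 144 counts, n = 9). These ranges overlapped. The gene's total count does not show which part of it was read, and the tumor cells carry the intact gene, so it does not check the genotype labels, and iNOS KO below means libraries so labelled. A set of 2015 receptor genes for smell, pheromones and taste, which serve mainly in sensory tissues, set 3 day 7 libraries apart. Their counts summed to 4089 CPM in WT anti-PD-1 replicate 3, 1448 CPM in WT anti-PD-1 replicate 4 and 1013 CPM in iNOS KO untreated replicate 1, against 13.9 to 366 CPM in the other 45. The same 3 libraries also had the fewest counts of all 48, down to 11625862 in WT anti-PD-1 replicate 3. Low depth and high receptor-gene counts thus cannot be told apart in them. These libraries are named beside the results that rest on them.

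Mitochondrial transcripts made up 4.2% to 10.8% of all counts at 0 h to day 3, where the median was 6.67%, and 4.67% to 10.4% on day 7, where it was 7.43%. Untreated tumors at 0 h held the highest single share, with 4.85%, 6.80% and 10.8% in replicate order. At 6 h the shares were 7.56%, 9.49% and 9.79% in untreated tumors, 6.58%, 4.81% and 7.60% with IgG, and 7.17%, 7.61% and 5.78% with anti-PD-1. The 0 h tumors thus spanned nearly the whole range of the 6 h tumors, while at 6 h the untreated tumors overlapped each of the antibody groups only at their lowest value. On day 1 the shares were 4.84%, 7.22% and 5.70% in untreated tumors, 4.62%, 4.77% and 8.07% with IgG, and 7.44%, 5.56% and 4.2% with anti-PD-1, and all 3 groups overlapped. On day 3 the untreated tumors were nearly alike, at 6.75%, 6.83% and 6.85%, and each of them was above the 3 tumors given IgG (5.47%, 4.56% and 6.11%) and above the 3 given anti-PD-1 (5.88%, 4.36% and 6.75%). The highest anti-PD-1 tumor, at 6.7475%, lay barely below the lowest untreated tumor, at 6.7504%.

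**Figure D1:**
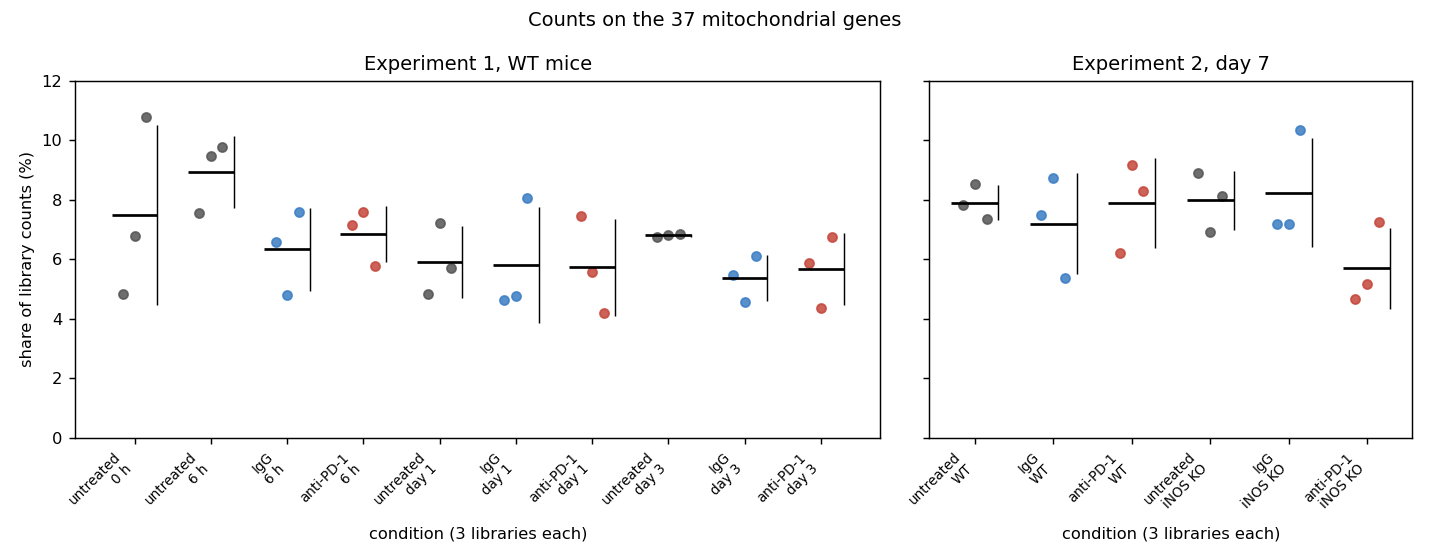
Share of all gene counts that fell on the 37 mitochondrial genes, in percent, with 1 point per tumor, colored by treatment, a horizontal bar at the mean of each of the 16 conditions and a vertical line of 1 SD to either side. Values run from 4.2% to 10.8% and most conditions overlap, while the untreated tumors of day 3, at 6.75% to 6.85%, lie above both antibody groups of that day.

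No difference in share between treatments passed the corrected threshold. The share was 5.84% ± 1.33 (SD, n = 9) with IgG and 7.22% ± 1.60 (SD, n = 9) in untreated tumors of 6 h, day 1 and day 3, a log2 difference of -0.31 (two-sided exact permutation test within times, p = 0.04, adjusted p = 0.287). Tumors given anti-PD-1 had 6.08% ± 1.26 (SD, n = 9), a log2 difference of -0.25 from untreated tumors (p = 0.064, same exact test) and of 0.06 from IgG (p = 0.685, same exact test). Time gave differences of like size. The share was 7.38% ± 1.59 (SD, n = 9) at 6 h, 5.82% ± 1.41 on day 1 (log2 difference -0.35, exact permutation p = 0.04) and 5.95% ± 0.973 on day 3 (log2 difference -0.30, exact permutation p = 0.017), and days 1 and 3 differed by 0.05 (exact permutation p = 0.738). All 10 comparisons over strata with 5 measures each were adjusted together as 50 tests by the Benjamini-Hochberg method, and none passed 0.05. By rank, muscle and leukocyte markers moved with the share in the first experiment, while the linear correlations did not pass the threshold. Over the 30 tumors of the first experiment, the share correlated with the summed level of muscle markers at r = 0.443 and rho = 0.494 (permutation test, adjusted p = 0.0719 and 0.0437), and with leukocyte markers at r = -0.489 and rho = -0.472 (adjusted p = 0.0634 and 0.0437). Without the 2 tumors farthest from the median of each marker, r was 0.292 for muscle and -0.332 for leukocytes. In bulk tumors, fewer cells of a type and less RNA per cell cannot be told apart, and the part of these markers in the differences was not tested.

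On day 7 the share was 7.84%, 8.53% and 7.35% in untreated WT tumors, 7.51%, 8.73% and 5.38% with IgG, and 6.21%, 9.18% and 8.30% with anti-PD-1. In iNOS KO mice it was 8.91%, 6.94% and 8.13% untreated, 7.18%, 7.18% and 10.4% with IgG, and 4.67%, 5.15% and 7.25% with anti-PD-1. The first 2 iNOS KO tumors given anti-PD-1 were thus the lowest of the experiment, and all 3 lay below the untreated WT tumors, but their highest tumor lay above the lowest of each of the other groups. Over the 3 treatments, iNOS KO had 7.31% ± 1.74 (SD, n = 9) and WT 7.67% ± 1.23 (SD, n = 9), a log2 difference of -0.09 (exact permutation p = 0.536). Anti-PD-1 differed from IgG by -0.20 on the log2 scale over both genotypes (exact permutation p = 0.38). The difference between genotypes of this effect was -0.68 (exact permutation p = 0.105, adjusted p = 0.45 over 15 such tests).

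Among single genes, 9 carried nearly all mitochondrial counts, and levels between genes are compared here per length, as CPM per kb of gene. mt-Cytb, which encodes cytochrome b of complex III, was highest, with a median of 13234 CPM per kb over the 48 tumors. The small-subunit rRNA mt-Rnr1 followed with 8501, mt-Co1 with 8383 and mt-Nd1, a membrane subunit of complex I, with 7267. The large-subunit rRNA mt-Rnr2 had 4995, the complex I genes mt-Nd2 and mt-Nd5 had 4292 and 4046, and the complex I genes mt-Nd4 and mt-Nd6 had 2079 and 2065. Single tumors kept much of this order. mt-Cytb was above mt-Rnr1 in 44 of 48 tumors and mt-Nd5 above mt-Nd4 in 48 of 48, whereas mt-Rnr1 was above mt-Co1 in only 31 and mt-Nd4 above mt-Nd6 in 23, so the last pair had no order. By counts rather than per length, mt-Cytb made up a median of 29.6% of mitochondrial mRNA counts, mt-Co1 25.9%, mt-Nd5 14.3%, mt-Nd1 13%, mt-Nd2 8.79%, mt-Nd4 5.47% and mt-Nd6 2.15%. Whether rRNA was removed in library preparation is not stated in the study's methods. The rank of mt-Rnr1 and mt-Rnr2 beside the mRNA genes is thus uncertain.

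**Figure D2:**
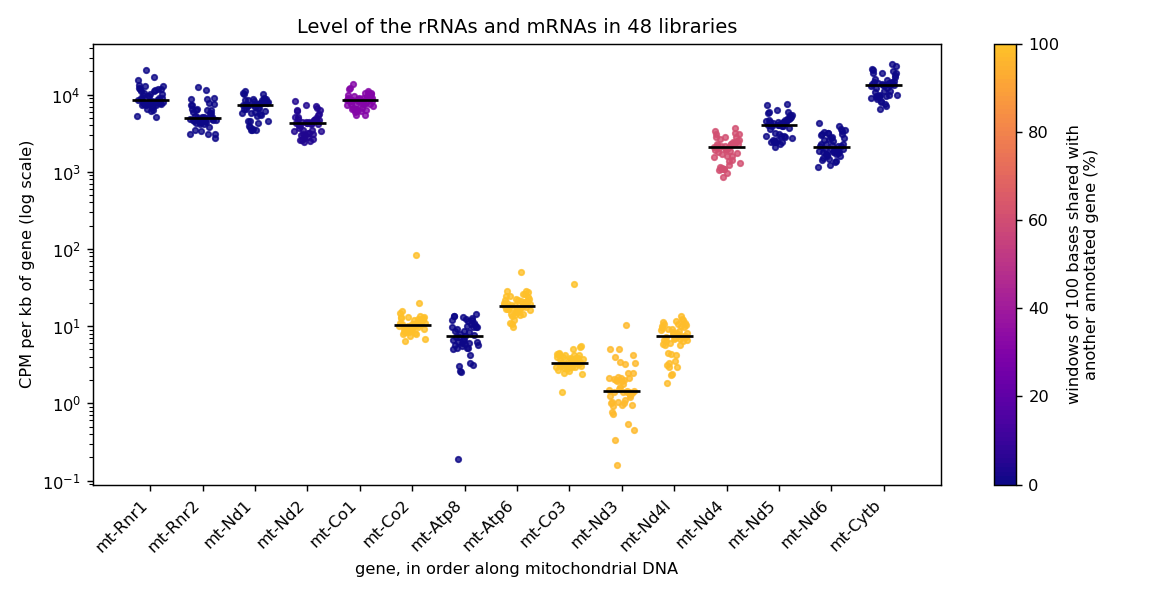
Level of the 15 mitochondrial mRNA and rRNA genes in the 48 tumors, as CPM per kb of gene on a log axis, in the order of the genes on chrM. Each point is a tumor, the black line is the median, and the color gives the percentage of 100-base windows shared with another annotated gene. The 9 abundant genes lie at or above 852 CPM per kb in every tumor, and the other 6 lie far below them.

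The other 6 mRNA genes were lower by orders of magnitude. Median levels were 18.4 CPM per kb for mt-Atp6 and 7.37 for mt-Atp8, both subunits of ATP synthase, 10.5 for mt-Co2 and 3.35 for mt-Co3, both core subunits of complex IV, and 7.36 for mt-Nd4l and 1.44 for mt-Nd3, both of complex I. Together these 6 held a median of 0.055% of mitochondrial mRNA counts. Of the 6, 5 lie almost wholly in sequence shared with another annotated gene: the share of 100-base windows found in another vM21 transcript was 99.5% for mt-Co2 and mt-Atp6, 99.9% for mt-Co3, 97.6% for mt-Nd3 and 98.5% for mt-Nd4l. It was 60.8% for mt-Nd4, 30.8% for mt-Co1, 3.19% for mt-Nd2, whose windows match Gm13339, and 0.0% for the other abundant genes. mt-Atp8 was low as well, with 0.0% of its windows shared with another transcript, although it overlaps mt-Atp6 as shown above. It lies wholly inside the chrM span that is copied on chromosome 1, but no annotated copy is paired with it. Only annotated transcripts were searched, so chromosome 1 sequence between the annotated copies was not compared. The chromosome 1 copies were themselves low, with medians of 1.43 to 17.3 CPM per kb. How the counting treated fragments that match both places was not tested, so the levels of these 6 genes, and of mt-Co1 and mt-Nd4 in part, are uncertain. Per 1000 windows shared with no other transcript, a measure added after seeing the data, the median was 12952 CPM for mt-Co1 and 5707 for mt-Nd4, and mt-Co1 then stood above mt-Rnr1 (9485) in 41 of 48 tumors.

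No mitochondrial gene passed an adjusted p of 0.05 in any of the 32 comparisons with edgeR, in which 25 of the 37 genes were tested in the first experiment and 28 in the second, and the rest were left out for low counts. The share of all genes called was 0.0% in every comparison of the first experiment, and in the second it was 0.587% for iNOS KO against WT in untreated tumors, 0.188% for IgG and 0.0422% for anti-PD-1 against untreated in iNOS KO, 0.00973% for iNOS KO against WT over the 3 treatments, and 0.0% in the rest. At an unadjusted p under 0.05 there were 32 of 450 pairs of mitochondrial gene and comparison in the first experiment (7.11%, against 6.0% for all genes) and 66 of 392 in the second (16.8%, against 13.6%). The 9 abundant genes had 13 of 162 such pairs (8.02%) in the first and 4 of 126 (3.17%) in the second. DESeq2 called mitochondrial genes in 4 comparisons. These were 2 genes on day 1 against 6 h (mt-Nd1 and mt-Co1, where it called 1.81% of all genes), 5 tRNA genes for iNOS KO against WT with anti-PD-1 (6.3%), 6 tRNA genes for anti-PD-1 against untreated in WT (5.72%), and mt-Rnr1 and mt-Tt for anti-PD-1 against untreated in iNOS KO (1.51%).

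No mitochondrial gene passed the threshold in edgeR between day 1 and 6 h, and mt-Co1 and mt-Nd1, both of which DESeq2 called, had the lowest unadjusted p. For mt-Co1 the level at 6 h was 13938, 18096 and 18970 CPM in untreated tumors, 13165, 10142 and 21221 with IgG, and 12924, 12773 and 11555 with anti-PD-1. On day 1 it was 10254, 14662 and 10078 CPM untreated, 9363, 10043 and 12672 with IgG, and 9257, 11800 and 8386 with anti-PD-1. Most day 1 tumors were thus below most 6 h tumors, with overlap within all 3 treatments, and in the edgeR fit the log2 fold change was -0.48 ± 0.14 (SE, n = 9 per time, adjusted p = 0.182). It was -0.69 ± 0.22 for mt-Nd1 (edgeR adjusted p = 0.182), -0.63 ± 0.23 for mt-Nd4, -0.48 ± 0.21 for mt-Nd5, -0.44 ± 0.20 for mt-Cytb and -0.38 ± 0.20 for mt-Nd2. For mt-Nd6, mt-Rnr2 and mt-Rnr1 it was -0.13 ± 0.22, -0.10 ± 0.18 and -0.05 ± 0.19. The low mRNA genes ranged from -0.49 ± 0.42 for mt-Atp8 to 1.09 ± 0.46 for mt-Nd3. All 9 abundant genes were below 0, with a median of -0.44, against 0.05 for all genes tested, and 5 of them had an unadjusted p under 0.05 where 16.9% of all genes had. As a share of all counts, mitochondrial mRNA was 5.50% at 6 h and 3.99% on day 1 (log2 difference -0.48, exact permutation p = 0.017, adjusted p = 0.287). On day 3 the 9 genes stood between -0.38 and -0.13 relative to 6 h (median -0.29), with no unadjusted p under 0.05.

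No mitochondrial gene passed the threshold between treatments in the first experiment. IgG against untreated over the 3 times had a median of -0.31 for the 9 genes (range -0.47 to 0.05), led by mt-Rnr1 at -0.47 ± 0.19 and mt-Cytb at -0.44 ± 0.20 (SE, adjusted p = 0.527 for both in edgeR). Anti-PD-1 against untreated had a median of -0.28 (range -0.34 to 0.04). Between the antibodies, anti-PD-1 against IgG gave a median of 0.03 (range -0.04 to 0.36), with the highest value for mt-Rnr2 (0.36 ± 0.18, edgeR adjusted p = 0.863). Each comparison with untreated tumors used the same untreated libraries. At 6 h, 6 of 25 tested mitochondrial genes had no overlap between IgG and untreated tumors after scaling by edgeR's TMM (trimmed mean of M-values) factors, against 8.19% of all genes, and 4 of these were abundant genes that were lower with IgG (mt-Cytb, mt-Nd2, mt-Rnr1 and mt-Rnr2). The same comparison on day 1 had 0 such mitochondrial genes (12.6% of all genes) and on day 3 it had 3 (11.2% of all genes). Anti-PD-1 against untreated had 4 at 6 h (5.61% of all genes), 0 on day 1 (5.14%) and 4 on day 3 (6.95%). Anti-PD-1 against IgG had 2 at 6 h (7.7%), 1 on day 1 (6.49%) and 3 on day 3 (8.32%). Untreated tumors against those of 0 h had 2 at 6 h (5.45%), 4 on day 1 (8.06%) and 3 on day 3 (7.72%). As shares of the 25 tested genes, these counts lay on both sides of the background.

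**Figure D3:**
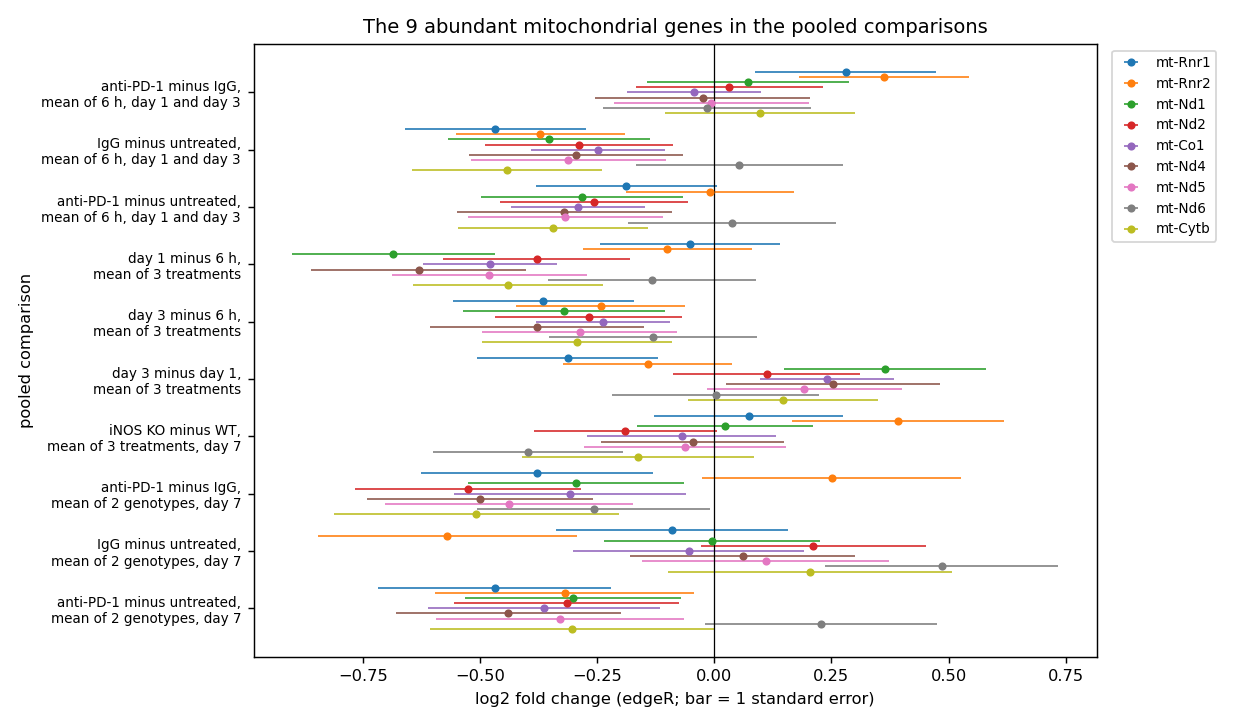
Fitted log2 fold changes of the 9 abundant mitochondrial genes in the pooled comparisons of both experiments, with 1 point per gene, a bar of 1 standard error to either side and a vertical line at 0. Day 1 against 6 h holds the lowest values of the first experiment, from -0.69 to -0.05.

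On day 7, untreated iNOS KO and WT tumors differed without overlap in both rRNAs and in 3 abundant mRNA genes, none of which passed the threshold. mt-Rnr1 was at 16341, 10632 and 11096 CPM in iNOS KO and at 8175, 8599 and 7380 CPM in WT, and mt-Rnr2 was at 18133, 9940 and 13741 CPM against 9060, 7660 and 8204 CPM. For both rRNAs every iNOS KO tumor was above every WT tumor. In the other direction, mt-Nd4 was at 2968, 3174 and 3114 CPM in iNOS KO and at 4353, 3935 and 3363 CPM in WT, without overlap, and mt-Nd2 and mt-Nd5 were ordered alike. The fitted log2 fold changes were 0.61 ± 0.35 for mt-Rnr1, 0.70 ± 0.39 for mt-Rnr2, -0.37 ± 0.34 for mt-Nd4, -0.48 ± 0.34 for mt-Nd2 and -0.33 ± 0.37 for mt-Nd5 (SE, n = 3 per group, edgeR adjusted p between 0.307 and 0.614). Without the 3 libraries rich in receptor-gene counts, one of which is in the untreated iNOS KO group, they were 0.44, 0.53, -0.30, -0.48 and -0.31 in the same order. mt-Nd6, whose groups overlapped after scaling, had the largest fitted change of the 9 abundant genes, -0.76 ± 0.35 (SE, edgeR adjusted p = 0.299). Without the 3 libraries it was -0.65. In this comparison 7 of 28 tested mitochondrial genes had no overlap after scaling, against 17.7% of all genes, and the remaining 2 were the low mRNA genes mt-Co3 and mt-Nd3, higher in iNOS KO. With IgG the count was 6 (12.1% of all genes). Within WT, 3 genes had no overlap between anti-PD-1 and IgG (11.9%), 3 between IgG and untreated (12.8%) and 9 between anti-PD-1 and untreated (24%), of which 5 were abundant mRNA genes that were lower with anti-PD-1 after scaling (mt-Co1, mt-Nd1, mt-Nd2, mt-Nd4 and mt-Nd5). In that comparison 2 of the 3 WT anti-PD-1 libraries are those rich in receptor-gene counts, and the unscaled share of all mitochondrial genes was 7.90% with anti-PD-1 and 7.91% untreated (exact permutation p = 0.9). The share of mitochondrial mRNA was 5.83% and 6.27%, with overlap (exact permutation p = 0.7). The 5 fitted log2 fold changes lay between -0.60 and -0.29 with all libraries (edgeR adjusted p between 0.205 and 0.552). Without the 3 libraries, a fit that leaves 1 WT anti-PD-1 tumor, they lay between -0.73 and -0.43. Within iNOS KO, 1 gene had no overlap between anti-PD-1 and IgG (mt-Co1, lower with anti-PD-1; 7.09% of all genes), 4 between IgG and untreated (17.6%) and 4 between anti-PD-1 and untreated (14%).

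The ratio of rRNA to mRNA counts within the mitochondrial genes does not depend on the rest of the library. It was 0.632, 0.422 and 0.440 in untreated iNOS KO tumors and 0.282, 0.236 and 0.269 in untreated WT tumors, the lowest of the former well above the highest of the latter. With IgG it was 0.297, 0.300 and 0.256 in iNOS KO and 0.211, 0.245 and 0.388 in WT. With anti-PD-1 it was 0.267, 0.340 and 0.379 in iNOS KO and 0.306, 0.384 and 0.355 in WT. Both antibody groups of iNOS KO were below the untreated iNOS KO tumors without overlap, whereas in WT the anti-PD-1 group, which holds 2 libraries rich in receptor-gene counts, was above the untreated tumors without overlap. The log2 difference between anti-PD-1 and untreated tumors was -0.59 in iNOS KO and 0.41 in WT, and without the 3 libraries it was -0.41 and 0.23, with 1 WT anti-PD-1 tumor left. Each such comparison of 3 tumors against 3 has an exact permutation p of 0.1, the smallest it can give. Over the 3 treatments, the ratio was 0.370 in iNOS KO and 0.297 in WT (log2 difference 0.29, exact permutation p = 0.10). Without untreated iNOS KO replicate 1, the library rich in receptor-gene counts, the other two untreated iNOS KO tumors still lay above all 9 WT tumors. The highest ratio of all 48 tumors was 1.14, in day 1 anti-PD-1 replicate 2.

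Counts on Gm42418 and Gm26917, annotated genes that lie over nuclear ribosomal RNA sequence, moved with this ratio. They were 8.10%, 4.96% and 6.69% of counts in untreated iNOS KO tumors, 2.22%, 2.64% and 3.01% in untreated WT tumors, and 8.83% in the day 1 tumor with the highest ratio. Over the 18 tumors of day 7, the log2 ratio and the log2 share of these genes correlated at r = 0.734 and rho = 0.715 (permutation test, adjusted p = 0.0053 and 0.0077 over 36 relations chosen after seeing the data). Without the 2 tumors farthest from the median share r was 0.649, and for deviations from the condition means it was 0.514 (permutation test, adjusted p = 0.0717). In the first experiment r was 0.340 and rho 0.493 (adjusted p = 0.128 and 0.0301), and r was 0.602 without 2 tumors. The part of nuclear rRNA counts in the ratio was not tested. Nor was that of any rRNA removal in library preparation, which the study's methods do not describe.

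mt-Nd6 is the mRNA gene annotated on the minus strand of chrM, and it is read here against the summed counts of the other mRNA genes. This ratio was 1.37%, 2.75% and 1.96% in untreated WT tumors of day 7, 1.70%, 2.06% and 4.89% with IgG, and 3.77%, 2.49% and 1.96% with anti-PD-1. In iNOS KO it was 1.31%, 1.5% and 1.60% untreated, 1.68%, 1.75% and 2.55% with IgG, and 2.61%, 2.72% and 2.20% with anti-PD-1. The 3 untreated iNOS KO tumors were below the 6 antibody-treated iNOS KO tumors, while the WT groups overlapped. Over both genotypes, anti-PD-1 against untreated differed by 0.60 on the log2 scale (means of 2.62% and 1.75%, exact permutation p = 0.03, adjusted p = 0.288). It was 0.82 without the 3 libraries rich in receptor-gene counts, which leaves 1 WT anti-PD-1 tumor. The leukocyte markers moved with this ratio, at r = 0.605 and rho = 0.588 in the first experiment (permutation test, adjusted p = 0.0053 and 0.0075) and r = 0.588 and rho = 0.540 in the second (adjusted p = 0.0386 and 0.0688). Without the 2 tumors farthest from the median marker level r was 0.491 and 0.680, and for deviations from the condition means it was 0.558 and 0.686. These relations were among the 36 chosen after seeing the data, and the part of leukocytes was not tested. Libraries were strand-specific, but the strand used in counting is not given in the sources used here, so reads of mt-Nd6 and of the opposite strand cannot be told apart.

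**Figure D4:**
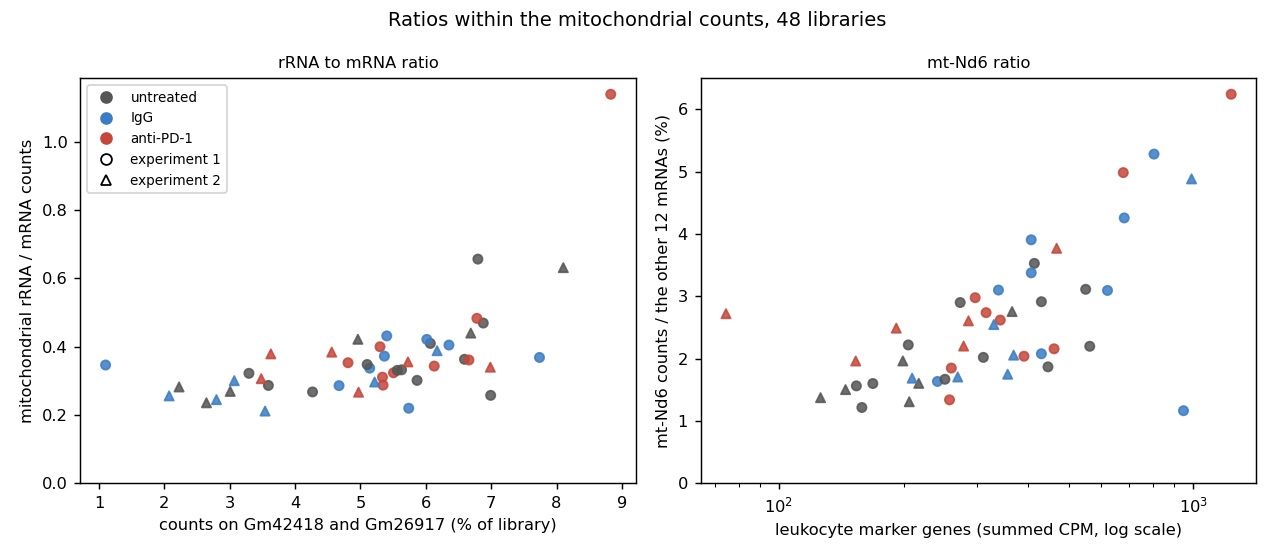
Left, ratio of mitochondrial rRNA to mRNA counts against the percentage of library counts on Gm42418 and Gm26917, and right, mt-Nd6 counts as a percentage of the other mitochondrial mRNA counts against the summed CPM of leukocyte markers (log axis). Each point is a tumor, colored by treatment, with circles for the first and triangles for the second experiment, and the highest rRNA to mRNA ratio, 1.14, lies at 8.83% of counts on Gm42418 and Gm26917.

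Of the low mRNA genes, mt-Co2 and mt-Co3 stood out in 1 tumor. mt-Co2 was at 5.46, 57.4 and 7.11 CPM in untreated iNOS KO tumors and at or below 13.7 CPM in every other tumor. In the same tumor, untreated iNOS KO replicate 2, mt-Co3 was at 27.7 CPM (3.91 and 3.28 CPM in the other two), mt-Atp6 at 34.7 CPM (14.2 and 12.4 CPM) and mt-Nd3 at 3.57 CPM (1.12 and 0.504 CPM). The 4 genes lie in the stretch that is copied on chromosome 1. In that tumor the copy Gm28661 was at 17.7 CPM (8.42 and 8.07 CPM in the other untreated iNOS KO tumors). Gm28437 was at 12.3 CPM (1.98 and 1.84 CPM) and Gm10925 at 11.8 CPM (7.48 and 7.79 CPM). Gm28438, the copy of mt-Nd3, was lower, at 4.82 CPM (9.07 and 7.51 CPM). Gm28439, Gm10222 and Gm29216 lay between the values of the others. mt-Nd4l, in the same stretch, was at 3.17 CPM there and 2.23 and 2.57 CPM in the others. Like copy levels occurred where mt-Co2 was at or below 13.7 CPM. Gm28437 was at 12.9 CPM in WT anti-PD-1 replicate 4, and Gm28661 at 17.4 CPM in 6 h IgG replicate 6. Fitted over the untreated iNOS KO group, mt-Co3 had a log2 fold change of 1.93 ± 0.55 against WT untreated tumors (SE, edgeR adjusted p = 0.15) and IgG differed from untreated in iNOS KO by -2.08 ± 0.55 (adjusted p = 0.14). Without untreated iNOS KO replicate 2 the values were 0.25 and -0.40. With it, but without the 3 libraries rich in receptor-gene counts, they were 2.36 (edgeR adjusted p = 0.00756) and -2.50 (adjusted p = 0.00746), so both then passed the threshold.

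The tRNA genes had few counts. Summed over the 48 libraries, mt-Tm had 11579 counts, mt-Ti 2758, mt-Tp 2517 and mt-Tk 1, and 12 of the 22 had 3 counts or fewer in over 24 libraries. tRNA genes held a median of 0.0187% of mitochondrial counts in the first experiment and 0.0259% in the second. The largest values of mt-Tt and mt-Tp were in the libraries with many receptor-gene counts. mt-Tt was at 0.34, 14.3 and 8.78 CPM in WT anti-PD-1 tumors (replicates 2, 3 and 4), at 8.21 CPM in untreated iNOS KO replicate 1, and at or below 1.39 CPM in the other 45 tumors. mt-Tp was at 0.98, 22.2 and 11.7 CPM in the same WT tumors, at 6.19 CPM in untreated iNOS KO replicate 1 and at or below 3.40 CPM in the 45. iNOS KO tumors given anti-PD-1 had 0.18, 0.06 and 0.15 CPM of mt-Tt and 0.93, 0.22 and 0.79 CPM of mt-Tp, which for mt-Tt are 7, 2 and 6 counts. The fitted log2 fold change of iNOS KO against WT with anti-PD-1 was -5.52 ± 1.26 for mt-Tt, -3.82 ± 0.85 for mt-Tp and -4.96 ± 1.25 for mt-Tq, the glutamine tRNA (SE, n = 3 per group, edgeR adjusted p = 0.123 for each). The median over all genes tested was -0.91 in this comparison, in which 6 of 28 mitochondrial genes had no overlap, against 22.3% of all genes. The 2 WT tumors that carry this difference are those with 4089 and 1448 CPM of receptor genes, and without the 3 libraries rich in such counts the log2 fold change was -1.30 for mt-Tt, -0.56 for mt-Tp and -0.32 for mt-Tq (edgeR adjusted p = 1.0 for each). That fit leaves 1 WT tumor, which is assumed to vary like the other groups. In the lone WT tumor mt-Tt stood at 0.34 CPM, as given above, next to 0.06 to 0.18 CPM in iNOS KO.

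**Figure D5:**
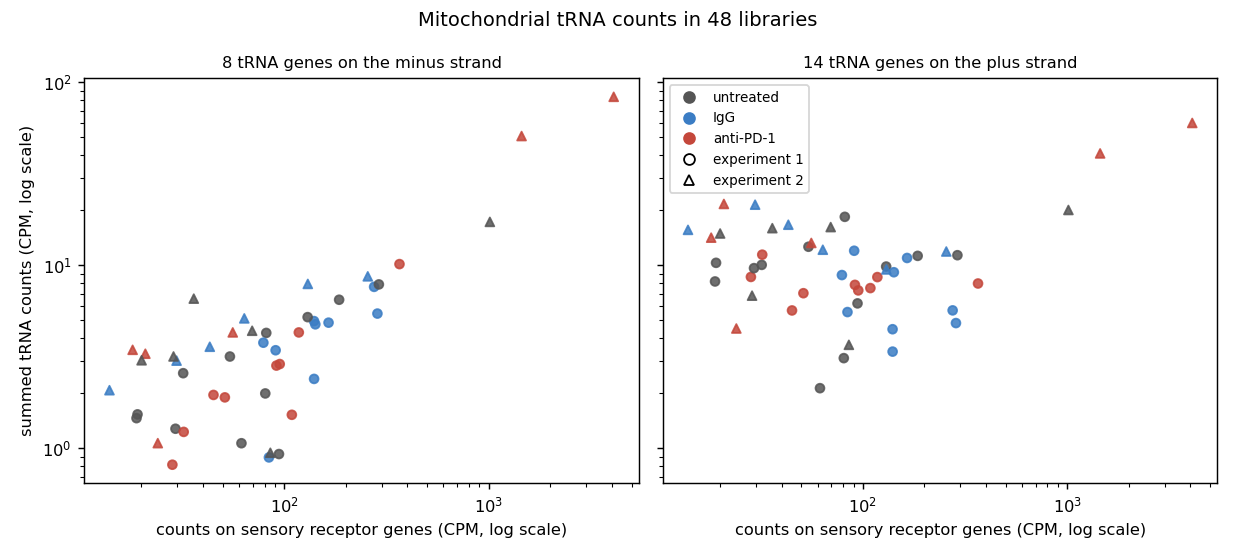
Summed CPM of the tRNA genes annotated on each strand against the summed CPM of 2015 receptor genes, on log axes, with 1 point per library, colored by treatment, and circles for the first and triangles for the second experiment. The left panel holds the 8 minus-strand and the right panel the 14 plus-strand genes. The 3 libraries with over 1000 CPM of receptor genes also have the highest minus-strand tRNA levels, 17.3 to 83.4 CPM.

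Split by strand, the 8 minus-strand tRNA genes summed to 17.3 to 83.4 CPM in the 3 libraries (median 50.9 CPM) and to 0.812 to 10.2 CPM in the other 45 (median 3.17 CPM), without overlap. The 14 plus-strand tRNA genes summed to 20.1 to 60.04 CPM and to 2.13 to 21.7 CPM, with overlap. Of these, mt-Tm was at 19.9, 14.3 and 4.04 CPM in the 3 libraries and at up to 16.7 CPM in the other 45. mt-Tt, also on the plus strand, set the 3 libraries apart, as given above. Of 22 tRNA genes, 14 were highest in WT anti-PD-1 replicate 3, and 7 of these were on the minus strand. High values were thus not confined to the minus strand, and the strand used in counting is not given. Across the 30 tumors of the first experiment, where no library stood apart in this way, the minus-strand sum and the receptor sum correlated at r = 0.76 and rho = 0.77 on the log2 scale (permutation test, p = 1e-05 for each, the smallest that 100000 permutations give, adjusted p = 6e-05 over 6 relations chosen after seeing the data). Without the 2 farthest libraries r was 0.767, and for deviations from the condition means it was 0.80. The plus-strand sum had r = -0.13 (adjusted p = 0.481). In the second experiment without the 3 libraries (n = 15), r was 0.47 for the minus strand (adjusted p = 0.113), 0.0909 without 2 further libraries, and -0.24 for the plus strand (adjusted p = 0.469). Receptor genes are spread over the nuclear genome and are silent in most tissues. What the 2 kinds of count share was not tested.

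Nuclear genes that act on mitochondrial DNA and its transcripts were read beside them, as a list of 50 genes of which 49 were in the table and tested. In the first experiment 0 were called by edgeR, with 42 of 882 gene and comparison pairs at an unadjusted p under 0.05 (4.76%, against 6.0% for all genes). In the second, 1 was called, with 62 of 686 such pairs (9.04%, against 13.6% for all genes), in a comparison where 0.587% of all genes were called. This was Slirp, which binds Lrpprc and stabilizes mitochondrial mRNAs. Slirp was at 38.5, 53.7 and 27.7 CPM (TMM-scaled) in untreated iNOS KO tumors and at 9.71, 18 and 15.6 CPM in untreated WT tumors. Every iNOS KO tumor was above every WT tumor, and the log2 fold change was 1.47 ± 0.278 (SE, edgeR adjusted p = 0.0187). In the edgeR fit it was no longer called without untreated iNOS KO replicate 2 (1.22, adjusted p = 0.0794), without untreated WT replicate 1 (1.25, adjusted p = 0.17) or without untreated WT replicate 3 (1.53, adjusted p = 0.0788). Polrmt and Tfam, the transcription machinery, Lrpprc itself, and Pnpt1, which degrades mitochondrial RNA, were not called in any comparison. On day 1 against 6 h, their log2 fold changes were 0.08 for Polrmt, -0.33 for Tfam, -0.34 for Pnpt1 and -0.30 for Lrpprc (edgeR adjusted p between 0.19 and 0.83).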

How the data were processed

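Per the labels and the study's methods, the authors made strand-specific libraries from 100 ng of total RNA with the NuGEN Universal Mouse kit, trimmed adapters with cutadapt 1.8.1, aligned reads to mm10 (GRCm38) with STAR 2.7.7a and estimated reads per gene with RSEM 1.3.0 on GENCODE vM21. The deposited values are whole-number counts per gene and library, not normalized by the authors, in 1 table whose name refers to another counting program, and which of the programs made it is not given in the sources used here. All 48 columns were used, and all 55450 gene identifiers matched vM21.

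Conditions were taken from sample titles, because the genotype, treatment and time fields conflict with them. The labels do not say that replicates of a group differ in anything but the tumor. The experiments were fitted separately in edgeR 4.0.16 (R 4.3.3): TMM factors, filterByExpr with a minimum count of 10, 1 coefficient per condition, the quasi-likelihood F-test, and Benjamini-Hochberg adjustment over all tested genes of a comparison at 0.05. The tests covered 26848 genes with 20 residual degrees of freedom at 0 h to day 3, and 30837 genes with 12 on day 7. Shares and ratios, with no filter, were compared on the log2 scale by two-sided exact permutation tests within strata, and correlations by 100000 permutations (numpy 2.4.6, scipy 1.17.1). Depth limits the low genes: intervals were not computed for counts of 3 or fewer, which were treated as near the floor. On simulated data with these depths and spreads, 150 of 200 genes with a 4-fold change were called in 3 tumors against 3 (7 others) in the first experiment and 152 (1 other) in the second. The changed genes were drawn from those with a mean level of at least 1 CPM. These rates thus do not cover lower genes or smaller changes.

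Copies were found by comparing annotated transcripts, and windows of 100 bases with all vM21 transcripts. Named in the text are every mRNA and rRNA gene, the 3 tRNA genes with the highest and the 1 with the lowest summed count, 5 nuclear genes (Polrmt, Tfam, Lrpprc, Slirp and Pnpt1) with any other called gene of the nuclear list, and the chromosome 1 copies. mt-Tt and mt-Tq were named after their values were seen. The members, lists and tests were chosen with earlier results of these data known. Alternatives were no filter, DESeq2 1.42.0 (Wald test), DESeq2 size factors, TMM without mitochondrial genes, fits of only the groups compared, a replicate block, the receptor-gene level as covariate, leaving out libraries, and other denominators of the share.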

Additional observations from a re-analysis of the deposited data

Results flagged for a closer look

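The ratio of rRNA to mRNA counts within the mitochondrial genes on day 7 moved in opposite directions in the genotypes. Anti-PD-1 against untreated gave a log2 difference of -0.59 in iNOS KO and 0.41 in WT, without overlap between the groups in either genotype. The difference between these effects was -1.0 (exact permutation test within genotypes, p = 0.005, the smallest of 400 arrangements, adjusted p = 0.075 over 15 tests added after seeing the data), so it did not pass the corrected threshold. Without the 3 libraries rich in receptor-gene counts, which leaves 1 WT anti-PD-1 and 2 untreated iNOS KO tumors, it was -0.63 (exact permutation p = 0.05 over 40 arrangements, adjusted p = 0.75). With anti-PD-1 the ratio was lower in 3 of 3 iNOS KO tumors and higher in 3 of 3 WT tumors than in every untreated tumor of the same genotype. This separation, for which the result was flagged, by itself fixes the exact permutation p at 0.005. That p therefore adds nothing to it. The share of counts on Gm42418 and Gm26917, given above, moved with the ratio, and its part was not tested. Groups held 3 tumors, too few for a check of single outlying tumors.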

How the results depend on the processing

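The count of mitochondrial genes called by edgeR, 0 in all 32 comparisons, stayed at 0 in 216 of 237 refits under other settings and in 294 of 300 refits that left out 1 library. It was 0 everywhere with DESeq2 size factors in edgeR (which moved the median of all genes by up to 0.12), TMM factors computed without mitochondrial genes, the replicate block and the receptor-gene level as covariate. With no filter on low counts it was 3 on day 1 against 6 h (mt-Nd1, mt-Co1 and mt-Nd4), 4 for iNOS KO against WT untreated, 7 with anti-PD-1 and 3 over treatments, 3 for anti-PD-1 against IgG and 5 against untreated in WT, 5 for IgG and 6 for anti-PD-1 against untreated in iNOS KO, 1 for the interaction, and 2 for IgG against untreated over genotypes, where 0.527% to 5.52% of all genes were called. With DESeq2 it was 2 on day 1 against 6 h, 5 for iNOS KO against WT with anti-PD-1, 6 for anti-PD-1 against untreated in WT and 2 in iNOS KO (1.51% to 6.3% of all genes). With only the compared groups fitted it was 4 for iNOS KO against WT with anti-PD-1 and 2 each for IgG and anti-PD-1 against untreated in iNOS KO (1.85% to 2.92% of all genes). Without the 3 libraries rich in receptor-gene counts it was 2 for iNOS KO against WT untreated, 2 for IgG and 1 for anti-PD-1 against untreated in iNOS KO, and 2 for IgG against untreated over genotypes (0.425% to 2.11% of all genes). Leaving out 1 library gave 0 to 1 for iNOS KO against WT untreated (1 without iNOS KO untreated replicate 1 or 4, with 0.334% and 0.678% of all genes), 0 to 1 for IgG against untreated in iNOS KO (1 without untreated replicate 4, with 0.402%), and, without WT anti-PD-1 replicate 2, up to 6 for iNOS KO against WT with anti-PD-1 (0 to 6), 3 for anti-PD-1 against IgG in WT (0 to 3) and 5 against untreated in WT (0 to 5), with 16.3%, 6.62% and 15.5% of all genes called in these 3 refits. The cause of these changes was not tested.

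Of the shares, anti-PD-1 against IgG in the first experiment went from 0.06 to -0.00292 on the log2 scale, and IgG against untreated on day 7 from -0.07 to 0.00509, with mitochondrial mRNA over protein-coding counts. Leaving out 1 library gave -0.00971 to 0.146 for the former, -0.154 to 0.0326 for the latter and -0.020 to 0.135 for day 3 against day 1. The log2 fold change of mt-Tq, iNOS KO against WT with anti-PD-1, turned to 0.58 with the receptor-gene covariate, and Slirp fell to 1.36 and lost its call (adjusted p = 0.113).

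Equal replicate numbers did not pair the tumors. Deviations from the group means had a median correlation of -0.005 over 65 pairs in the first experiment and -0.007 over 36 in the second, and 4 of 30 and 5 of 18 libraries matched their own number best. With the replicate block 0 mitochondrial genes were called in every comparison. For the share, the block kept only tumors whose replicate number occurred in both groups compared. The share of day 3 against 6 h then differed by -0.19 (exact permutation p = 0.25, 6 pairs). That of anti-PD-1 against IgG in the first experiment differed by 0.31 (exact permutation p = 0.0625, the smallest that 5 pairs allow). With no block and all tumors it was 0.06, so these values differ in the tumors used as well as in pairing.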
